A study of Mus musculus with 605 samples.

Results

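Bulge cells of nevus-bearing mutant skin at postnatal day 56 (P56) were divided by their Cd34 transcript. Of 94 cells on the mutant bulge plate, 89 passed the limits on total expression, mitochondrial share and genes detected, out of 605 cells of all kinds in the series. The classes were chosen by the Cd34 value itself: 41 cells had Cd34 at 1 TPM or more (TPM, a share of the transcripts of a cell corrected for gene length) and are called Cd34-positive, and 48 cells fell below that limit and are called Cd34-negative. Every difference between these classes in the mutant plate therefore describes the split that selected them, and no test was run on it.

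The study profiled single cells of mouse dorsal skin from a model of hairy nevi, in which melanocytes carry an activated Nras, and from WT mice. Mutant bulge cells came from Tyr-NrasQ61K;K14-H2B-GFP mice at P56 and WT bulge cells from K14-H2B-GFP mice at P56 (telogen) and P30 (anagen). The Tyr promoter drives the mutant Nras in the melanocyte lineage, so the bulge cells themselves were not its target, and the K14 promoter gives all 3 groups a green nuclear label in keratinocytes. For bulk RNA, bulge cells were sorted as GFP-positive, CD34-positive and P-cadherin-low, a gate that the study does not repeat for the single cells. Each plate counts as 1 sample, and the sources used here do not give the number of mice behind it.

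The bulge is the niche of hair follicle stem cells below the sebaceous gland. Its outer layer holds slowly cycling stem cells that rest on the basement membrane and fuel each growth phase, whereas the inner layer holds differentiated cells that keep the club hair in place and signal to the stem cells. CD34, a sialomucin on the cell surface, is widely used with integrin alpha-6 to sort mouse bulge stem cells. Lgr5, a receptor for R-spondins, and Krt15, a basal type I keratin, are further markers of this region.

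Cd34 lies on chromosome 1 at 194938819 to 194961279 (GRCm38, forward strand, protein coding). In the 41 positive mutant cells its TPM ran from 1.84 through a median of 140 to 1110. The 5 positive cells nearest the limit held 1.84, 4.98, 5.42, 5.96 and 10.7 TPM, whereas all 48 negative cells were listed at 0. The limit thus fell into a gap, and Cd34-negative here means that no Cd34 transcript was quantified in a cell, and says nothing of the protein on its surface.

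Positive cells made up 46.1% of the mutant plate (exact 95% interval 35.4 to 56.96). The same limit gave 8 of 83 cells in the WT P56 plate (9.64%, 4.25 to 18.1) and 10 of 84 in the WT P30 plate (11.9%, 5.86 to 20.8). The melanocyte and myeloid plates, a mutant and a WT plate of each at P56, hold cells of which few should make Cd34. There 1 or 2 cells a plate passed the limit, at most 2.74% of the cells. The median numbers of genes detected per cell were 4249 in the mutant, 4096 in the WT P56 and 3008 in the WT P30 bulge plate.

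**Figure D1:**
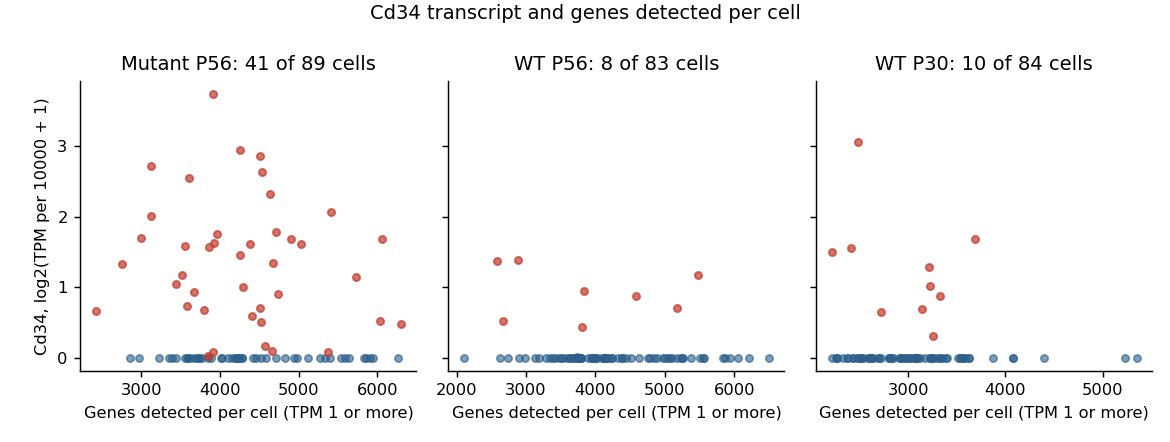
Each point is a bulge cell. The x axis gives the genes at TPM 1 or more in that cell and the y axis its Cd34 level as log2(TPM per 10000 + 1), with red for cells at TPM 1 or more and blue for the rest. Red points number 41, 8 and 10, and in the mutant plate they run from 2417 to 6303 genes, beside 2855 to 6258 for the blue points.

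Lgr5 and Krt15 were found across the mutant plate, so the cells of both classes carried bulge markers. Lgr5 was detected (TPM of at least 1) in 40 of 41 positive cells, at 0 to 369 TPM with a median of 98.2, and in 32 of 48 negative cells, at 0 to 453 TPM with a median of 55.9. Among the 17 cells without Lgr5, 1 held Cd34. Krt15 was detected in 38 of 41 positive cells, with a median of 2768 TPM, and in 47 of 48 negative cells, with a median of 3473 TPM. The ranges of both genes overlapped almost entirely between the classes.

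Genes detected per cell, the control for sparse capture, differed little between the classes. Positive cells had 2417 to 6303 genes with a median of 4294, and negative cells 2855 to 6258 with a median of 4227. Mitochondrial shares had medians of 7.24% and 6.41%. When 40 positive cells were each paired with a negative cell differing by at most 248 genes, all 27 named genes described below kept their direction, and all of them stayed at a difference of at least 0.5. The classes were less even across the plate: wells of rows C and D held 4 positive cells of 23 (17.4%, exact interval 4.95 to 38.8), and the other rows 37 of 66 (56.1%, 43.3 to 68.3). Without rows C and D, the 27 genes all stayed at 0.5 or more in their direction. The part of well position in the split was not tested.

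Differences are given below as the mean of positive minus the mean of negative cells on the log2(TPM per 10000 + 1) scale, where 1 stands for a doubling of a well expressed gene. Of 7509 genes that 25% or more of either class detected, Cd34 left out, 20 (0.266%) were at least 1 higher and 14 (0.186%) at least 1 lower in Cd34-positive cells. The median over all of these genes was -0.0052. The higher genes were led by Krt17, Gnmt and Sparc, and the lower genes by Mt1, Mt2 and Atf3.

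Krt17 had the widest difference of the higher genes. It encodes a type I keratin of the outer root sheath and outer bulge and lies on chromosome 11 at 100256217 to 100261029 (GRCm38, reverse strand). Its TPM ran from 0 to 38804 with a median of 3496 in positive cells and from 0 to 18137 with a median of 228 in negative cells. It was detected in 37 of 41 and 35 of 48 cells, so the classes overlapped in range and differed in level, by 2.32. Krt17 is also among the 5 outer bulge markers the study took from its own clustering and earlier work, and that list is not independent of these cells.

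Several other higher genes encode matrix or secreted proteins, a grouping made after the values were seen. Sparc, a matricellular glycoprotein that binds collagen (chromosome 11, 55394500 to 55423183, GRCm38), had medians of 391 TPM in positive and 31.6 TPM in negative cells, with highest values of 1502 and 650 TPM, and a difference of 1.41. Igfbp4, which binds insulin-like growth factors outside the cell, had medians of 557 and 54.04 TPM (1.40). Angptl4, a secreted inhibitor of lipoprotein lipase, had medians of 569 and 113 TPM (1.33). Lgals1, galectin-1, had medians of 154 and 35.6 TPM (1.18). In each of these genes the highest negative cell lay above the median of the positive cells, so no gene separated the classes alone.

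Mfap2, a microfibril-associated glycoprotein of elastic fibres, was found mostly in positive cells. It was detected in 21 of 41 positive cells, up to 1185 TPM, and in 2 of 48 negative cells, up to 39.7 TPM (difference 0.97). Emb, the gene of the cell-surface glycoprotein embigin, was detected in 23 positive and 6 negative cells (0.83). Postn, periostin, a matrix protein that binds integrins, was detected in 32 and 23 cells, with medians of 169 and 0.36 TPM (0.87). Among 55 cells with Postn, 32 were Cd34-positive (58.2%, 44.1 to 71.3), against 9 of 34 without it (26.5%, 12.9 to 44.4). These shares restate the Postn difference in the same cells and are no test.

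Enzymes of the methionine and sarcosine pathway were higher together. Mat2a makes S-adenosylmethionine, Gnmt uses it to methylate glycine to sarcosine, and Sardh oxidises sarcosine in mitochondria. Gnmt had medians of 571 TPM in positive and 140 TPM in negative cells (1.72), Mat2a of 843 and 179 TPM (1.29), and Sardh of 290 and 0 TPM (1.12). This grouping was made after the values were seen and stands for no list. Gnmt is also one of the genes that earlier results placed among those raised in the mutant plate.

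The remaining higher genes had other roles. Il11ra1, the receptor chain for interleukin-11, was detected in all 41 positive cells, at 123 TPM or more, and in 39 of 48 negative cells (medians 1340 and 311 TPM, 1.40). Gstm5, a glutathione transferase, had medians of 434 and 88.02 TPM (1.33), and Myl9, a myosin regulatory light chain, of 389 and 0 TPM (1.23). Gja1, the gap junction protein connexin 43, had medians of 2515 and 1090 TPM (1.14). Ucp2, a mitochondrial carrier, was among the strongest genes of the plate, at medians of 11703 and 6856 TPM (1.14). Slc7a8, an amino acid transporter, had medians of 625 and 143 TPM (1.13), and Slc3a2, its heavy-chain partner, a difference of 1.05. The other 5 genes past 1 were Fam132a, Bgn, Cbr2, Cpne8 and Col18a1, between 1.01 and 1.10. Reads that Gstm5 shares with related transferases are divided among them by the quantification, so its share of them is uncertain.

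**Figure D2:**
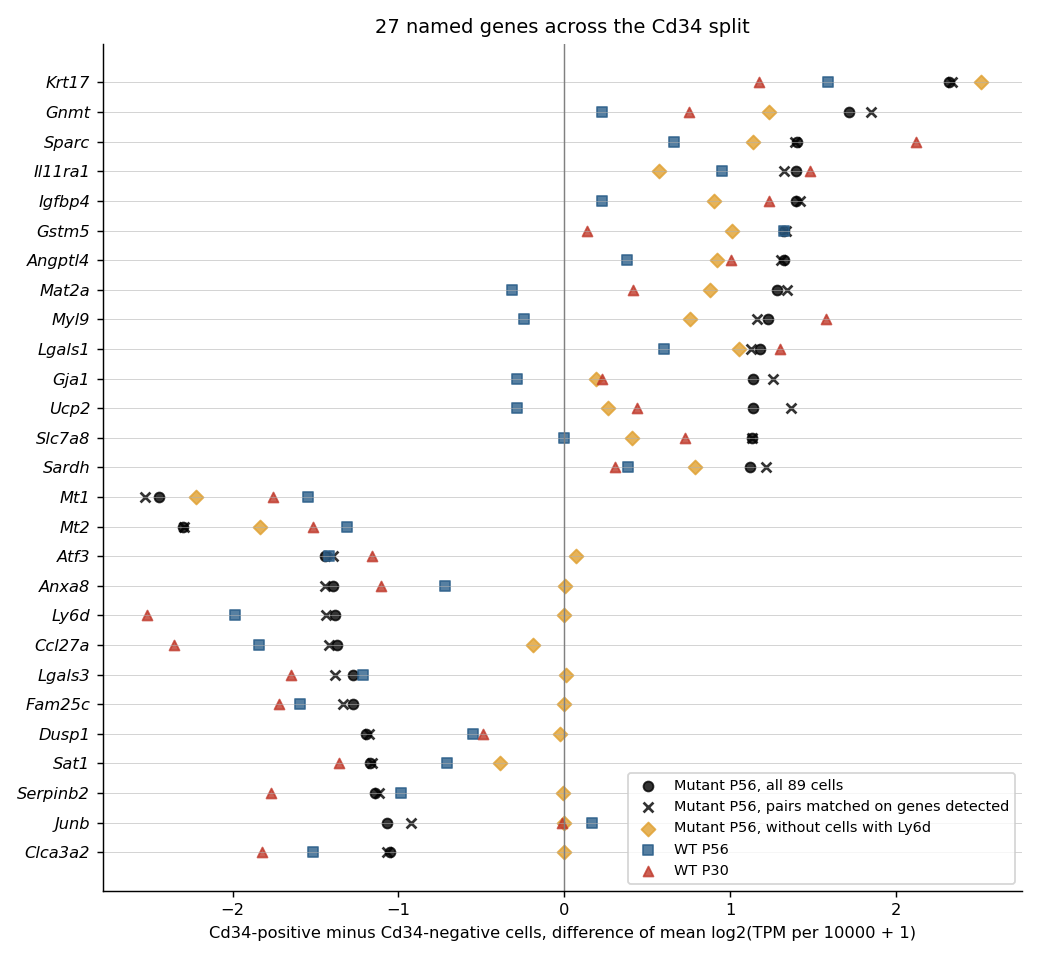
The 27 named genes are in rows and the x axis gives the difference of mean log2(TPM per 10000 + 1), Cd34-positive minus Cd34-negative, with 0 as a grey line. Black circles are all 89 mutant cells, crosses the 40 matched pairs, yellow diamonds the mutant cells without Ly6d, blue squares the WT P56 and red triangles the WT P30 plate. Crosses sit beside the circles in every row, whereas 11 of the 13 lower genes move to within 0.5 of 0 when cells with Ly6d are left out.

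The metallothioneins were the genes most reduced with Cd34. Mt1 and Mt2 encode small cysteine-rich proteins that bind zinc and copper, and they are neighbours on chromosome 8 (94179082 to 94180327 and 94172664 to 94173568, GRCm38, forward strand). Mt1 ran from 0 to 20766 TPM with a median of 0 in positive cells, and from 0 to 13097 TPM with a median of 3639 in negative cells (-2.45). Mt2 had medians of 0 and 1662 TPM, with highest values of 20981 and 9326 TPM (-2.30). Mt1 was detected in 20 positive and 43 negative cells and Mt2 in 15 and 38. Of the 26 cells without Mt1, 21 were Cd34-positive (80.8%, 60.6 to 93.4), against 20 of 63 with it (31.7%, 20.6 to 44.7). These shares restate the difference for which Mt1 was named and are no test. The transcripts are similar and reads they share are apportioned by the quantification, so the value of each gene alone is uncertain.

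Most of the other 11 lower genes behaved in another way, being absent from most cells of both classes and very high in a few negative ones. Ly6d, a surface protein of stratified epithelia (chromosome 15, 74762056 to 74763620, GRCm38), was detected in 4 positive cells at up to 194 TPM and in 16 negative cells at up to 10704 TPM (-1.38). Anxa8, an annexin, was detected in 2 and 15 cells, and its highest values were 3.28 and 5137 TPM (-1.40). Fam25c was detected in 0 of 41 positive cells (a count of 0 allows up to 3 cells, or 7.32%) and in 14 negative cells (-1.28). Serpinb2, a serine protease inhibitor, was likewise detected in 0 positive and 14 negative cells (-1.14), and Clca3a2 in 1 and 15 (-1.05).

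Lgals3, galectin-3, was detected in 8 positive and 21 negative cells (-1.28). Sat1, the acetyltransferase that starts polyamine breakdown, was detected in 5 and 28 cells (-1.17). Ccl27a, a keratinocyte chemokine that attracts T cells to skin, was detected in 35 and 41 cells and differed in level, with medians of 116 and 289 TPM and highest values of 4498 and 21872 TPM (-1.37). Transcripts of the immediate early response completed the set. Atf3, a stress-induced transcription factor, was detected in 6 and 17 cells (-1.45), Dusp1, a phosphatase of MAP kinases, in 11 and 23 (-1.20), and Junb, an AP-1 subunit, in 31 and 39 (-1.07).

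The 16 Cd34-negative cells with Ly6d held most of these values, a grouping made after the values were seen. Of the 5 genes Anxa8, Fam25c, Serpinb2, Clca3a2 and Lgals3, at least 4 were detected in 14 of those 16 cells, in 0 of the other 32 negative cells and in 0 of the 41 positive cells. Median Atf3 was 3551 TPM in the 16 cells and 0 in both other sets. Fos, another AP-1 subunit, had medians of 5047, 13.95 and 66.4 TPM in the 16, the 32 and the 41 cells. Of 22 immediate early genes, the median cell detected 19, 7 and 8 in that order.

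Inner bulge markers named by the study were found in the same 16 cells. Chit1, a chitinase, was detected in 12 of them and in none of the other 73 mutant cells. Krt80 was detected in 14 of them, in 0 of the other 32 negative cells and in 1 positive cell at 2.08 TPM. Krt6a, the other inner bulge marker, was rare in the plate, detected in 4 positive and 6 negative cells. Krt15 had a median of 6353 TPM there, against 2869 TPM in the other negative cells and 2768 TPM in the positive cells. Genes of the higher set were low in them: Slc7a8 was detected in 1 of the 16, Sardh in 0, Gnmt in 2 and Igfbp4 in 2. Median Ucp2 was 1219 TPM in the 16 cells and 9124 TPM in the other 32. The 16 cells had a median of 3790.5 genes detected, and 4 of them lay in well rows C and D, against 15 of the other 32.

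**Figure D3:**
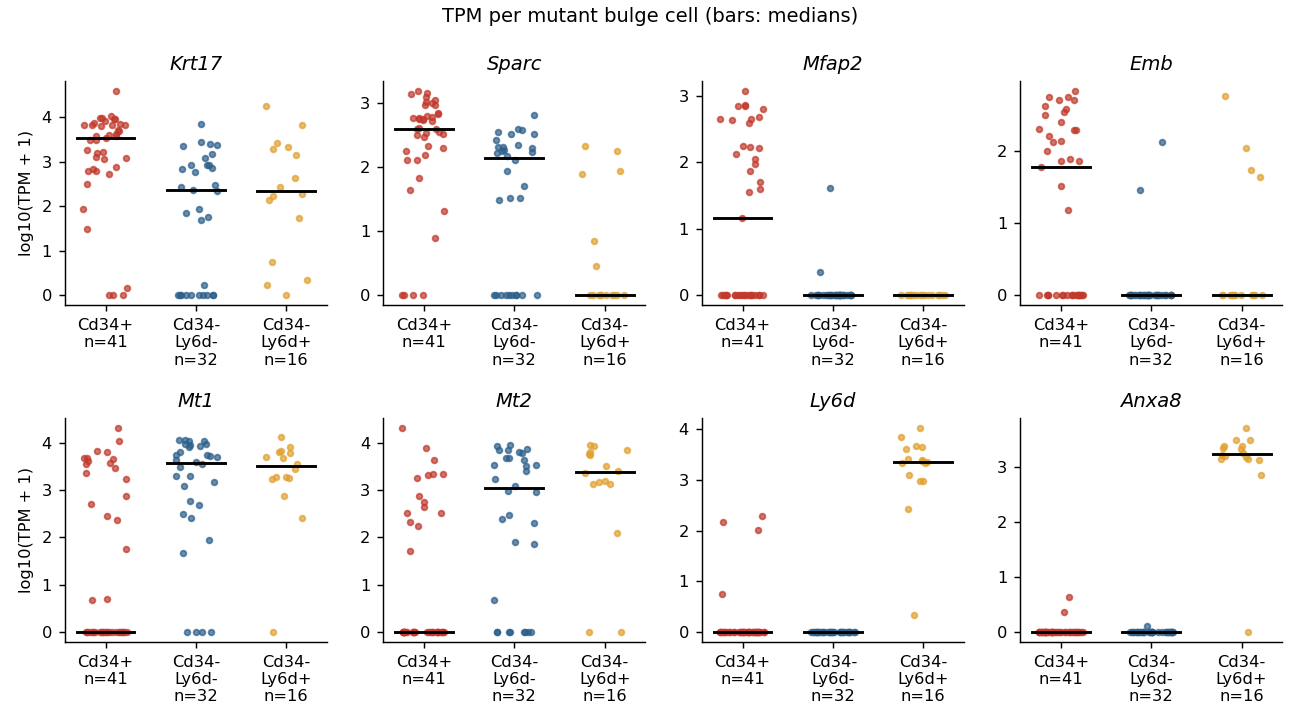
Each point is a mutant bulge cell and the y axis gives log10(TPM + 1) of 8 genes, with bars at the medians. Columns hold the 41 Cd34-positive cells (red), the 32 Cd34-negative cells without Ly6d (blue) and the 16 Cd34-negative cells with Ly6d (yellow). In Krt17, Mfap2, Emb, Mt1 and Mt2 the median of the red column lies away from both others, whereas Ly6d and Anxa8 are high in the yellow column.

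With all 20 cells that held Ly6d left out, 37 positive and 32 negative cells remained, and the difference separated into kinds of genes. Krt17 stayed at 2.51, Gnmt at 1.24, Sparc at 1.14, Lgals1 at 1.06 and Gstm5 at 1.01. Mt1 stayed at -2.22 and Mt2 at -1.84, and these were the lower genes that stayed at 0.5 or beyond. S100a6, a calcium-binding protein, moved from 0.72 to 1.16. In contrast Gja1 went from 1.14 to 0.19, Ucp2 from 1.14 to 0.26 and Slc7a8 from 1.13 to 0.41. Of the 14 higher genes 11 stayed at 0.5 or more, and of the 13 lower genes 2 did.

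In the 32 Cd34-negative cells without Ly6d, Krt17 had a median of 228 TPM and a highest value of 7234 TPM, against a median of 3496 TPM in the positive cells. Mfap2 was detected in 2 of these 32 cells and Emb in 2, against 21 and 23 of 41 positive cells. Mt1 was detected in 28 of the 32, with a median of 3808 TPM. Ucp2, Gja1 and Il11ra1 were detected in all 32, at medians of 9124, 1946 and 1174 TPM, values that lay closer to the positive cells than to the 16 cells with Ly6d.

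**Figure D4:**
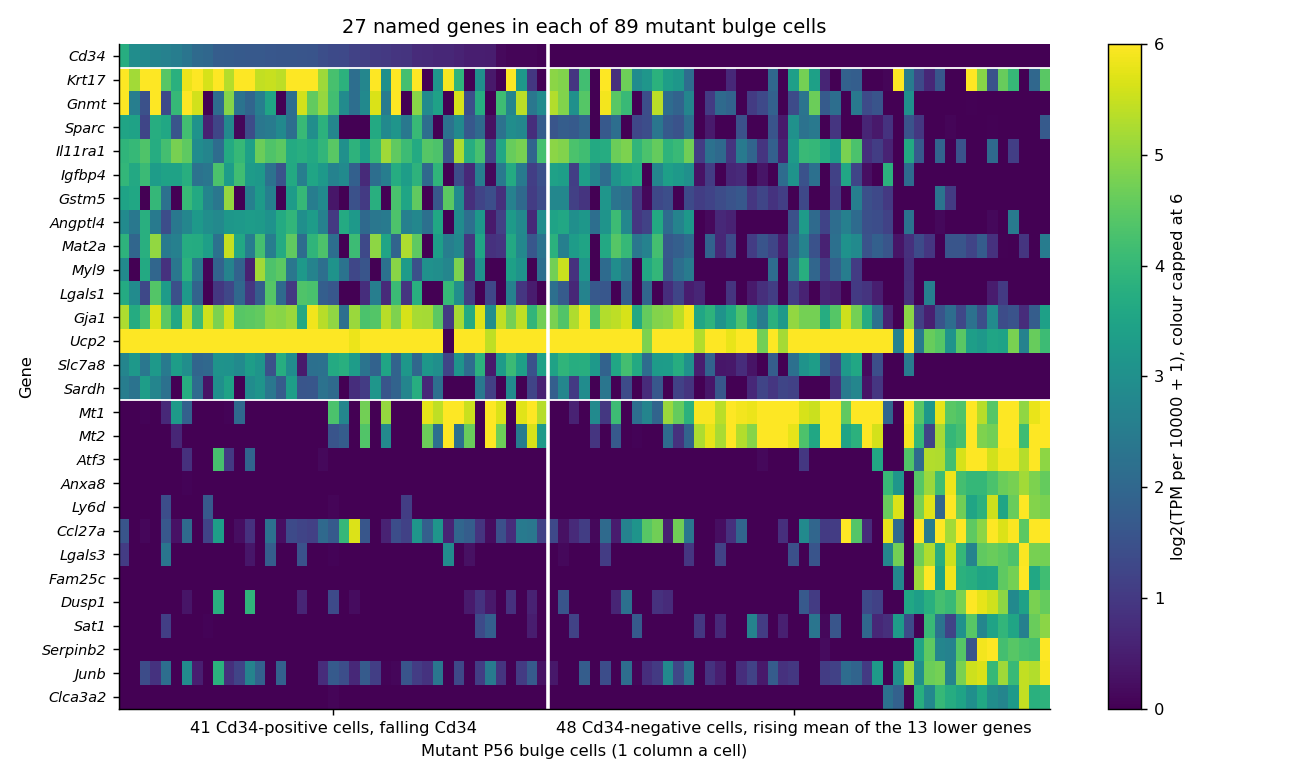
Columns are the 89 mutant bulge cells, 41 Cd34-positive on the left in falling order of Cd34 and 48 Cd34-negative on the right in rising order of the mean of the 13 lower genes. Rows are Cd34, the 14 higher and the 13 lower genes, with colour for log2(TPM per 10000 + 1) capped at 6. About the last 14 columns carry Anxa8 to Clca3a2 together, and most of the leftmost Cd34-positive cells lack Mt1 and Mt2.

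Within the positive class the genes were also uneven with the Cd34 level. The 21 cells with Cd34 of 140 to 1110 TPM were set beside the 20 cells with 1.84 to 133 TPM, with medians of 4257 and 4350 genes detected. Krt17 had a median of 4948 TPM, never below 1152 TPM, in the former and 663 TPM in the latter. Mt1 was detected in 7 of 21 and 13 of 20 cells and Mt2 in 2 of 21 and 13 of 20, where the highest Mt2 value of the former was 175 TPM. Mfap2 was detected in 17 and 4 cells and Emb in 17 and 6.

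Sox9 and Sfrp1, picked after their values were seen, were also uneven. Sox9, a transcription factor needed to form and keep follicle stem cells, was detected in 19 of 21 cells of higher Cd34 and 6 of 20 cells of lower Cd34. Sfrp1, a secreted WNT inhibitor, was detected in 19 and 4. The bulge genes Gas1 and Dkk3 were uneven too, with Gas1 detected in 18 and 8 cells and Dkk3 in 17 and 7. Lgr5, Postn and Krt15 were not uneven in this way. Lgr5 was detected in 21 of 21 and 19 of 20 cells and Postn in 16 and 16. Krt15 had medians of 1835 and 3297 TPM. Across the 41 positive cells the Spearman correlation with Cd34 TPM was 0.72 for Sox9, 0.60 for Sfrp1, 0.60 for Emb, 0.53 for Krt17 and -0.64 for Mt2, given as a description over cells of 1 plate that share a library preparation. Il11ra1 and Gja1 had values of -0.04 and 0.00035, values near 0 although both genes were higher in the positive class.

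Gene lists were described by the members that 10% or more of either class detected, beside a background in which 1.28% of 10432 genes were at least 0.5 higher and 0.776% at least 0.5 lower. Of the bulge stem cell genes, 23 of 32 passed that filter, 4 were at least 0.5 higher and 1 at least 0.5 lower, with a median of 0.18. The 4 were Sfrp1 (0.99), Postn (0.87), Tbx1 (0.52) and Dkk3 (0.52), and the 1 was Krt15 (-0.66). Gas1, a membrane protein tied to growth arrest, was at 0.498 with 26 of 41 and 9 of 48 cells detected, and Sox9 at 0.44 with 25 and 9. Nfatc1, a transcription factor of stem cell quiescence, was detected in 0 positive and 9 negative cells (-0.11). Of 10 quiescence genes named by the study, 2 passed the filter, at -0.11 and 0.30. Their median of 0.095 became 0.45 without cells with Ly6d.

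Of 29 adhesion, integrin and matrix genes that passed, 7 were at least 0.5 higher and 0 lower, with a median of 0.20. They were Sparc, Bgn (1.05), Col18a1 (1.01), Postn, Timp3 (0.69), Lama5 (0.57) and Cd151 (0.55), which span a proteoglycan, a basement membrane collagen, a laminin chain, an inhibitor of metalloproteinases and an integrin-binding tetraspanin. Integrin genes themselves stayed near 0, with Itga6 at -0.06 and Itgb1 at 0.14. Cdh3, the gene of the P-cadherin used in the gate for bulk RNA, was at 0.49 and was detected in 40 of 41 positive and 40 of 48 negative cells. The CD34 relative Podxl was at 0 in all 89 cells.

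Of the outer bulge markers of the study, 3 of 5 were at least 0.5 higher, Krt17, Col18a1 and Vdr (0.77), and the median of 0.77 became 0.19 without cells with Ly6d. Inner bulge and companion layer genes had a median of -0.42 over 6 members that passed. Differentiating keratinocyte genes had a median of -0.33 over 11 members, with Ly6d, Dmkn (-0.82) and Krtdap (-0.54) at least 0.5 lower. Krtdap was found in 5 negative cells, and all 3 cells with at least 2 of Krt1, Krt10 and Krtdap at 100 TPM or more were Cd34-negative. These medians became 0.00045 and 0.017 without cells with Ly6d.

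Of 22 immediate early genes, 13 were at least 0.5 lower and 0 higher, with a median of -0.53 that became 0.063 without cells with Ly6d. Besides Atf3, Dusp1 and Junb, Fos was at -0.96, Nr4a1 at -0.93 and Zfp36 at -0.89. Egr1, which the plate expressed widely, was at -0.0040 with 37 of 41 and 45 of 48 cells detected. Fitted beside the mean of this list, Krt17 was at 2.57, Sparc at 1.21, Mt1 at -2.20 and Mt2 at -1.86, and Atf3 at -0.24. Atf3 is a member of that list, so its fall was partly built in.

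Few cell cycle genes reached a difference of 0.5. Of 43 S phase genes none and of 52 G2/M genes 1, the tubulin Tubb4b (-0.72), reached 0.5 in either direction, with medians of -0.07 and -0.10. Most lay slightly below 0, 37 of 43 and 48 of 52, beside a median of -0.0059 over all genes that passed the 10% filter. In the matched pairs the medians were 0.012 and -0.067, and without cells with Ly6d they were -0.14 and -0.17. Cdk1 was detected in 13 of 41 positive cells and 14 of 48 negative cells. At least 20 of the G2/M genes were detected in 18 cells, of which 6 were positive (33.3%, 13.3 to 59.01). Without those 18 cells the S phase and G2/M medians were -0.015 and 0. The 18 cells were chosen by G2/M genes, so the change of the G2/M median was partly built in. At least 20 S phase genes were detected in 7 positive and 15 negative cells. Cdkn1a, the cell cycle inhibitor p21, was detected in 5 positive and 18 negative cells (-0.82), of which 14 were among the 16 with Ly6d.

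Genes that earlier results of these data placed among those raised in the mutant plate were higher in positive cells, 12 of 15 by at least 0.5, with a median of 0.95. This list was drawn from these cells and gives no independent support. Without cells with Ly6d its median was 0.19. Exceptions were Fabp5, a fatty acid binding protein, at -0.48, and Slc39a10 at -0.05. Heat shock, glycolysis, ribosomal protein, WNT, BMP and TGF-beta, Notch and Hedgehog and FGF lists had medians between -0.11 and 0.03, among which Id3, a BMP target, was at -0.89 and Hsp90aa1 at -0.65.

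Markers of other cell types had low medians in both classes, but fibroblast and haematopoietic sums were high in at least 1 negative cell. Of 13 endothelial genes 7 were at 0 in all 89 cells, among them Pecam1 and Kdr, and their summed level reached 164 TPM in positive and 235 TPM in negative cells, with medians of 0. Of 10 melanocyte genes 4 were at 0 in all cells, Tyr and Sox10 included, with highest sums of 230 and 260 TPM. Of 13 fibroblast genes 6 were at 0 in all cells, Pdgfra and Lum included, with sums of 0 to 125 TPM and 0 to 2447 TPM. Dcn was detected in 5 positive and 17 negative cells (-0.50). Haematopoietic genes summed to 0 to 1187 TPM and 0 to 19046 TPM, with medians of 4.47 and 0.87, and Cd3e and Cd3g were at 0 in all cells.

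**Figure D5:**
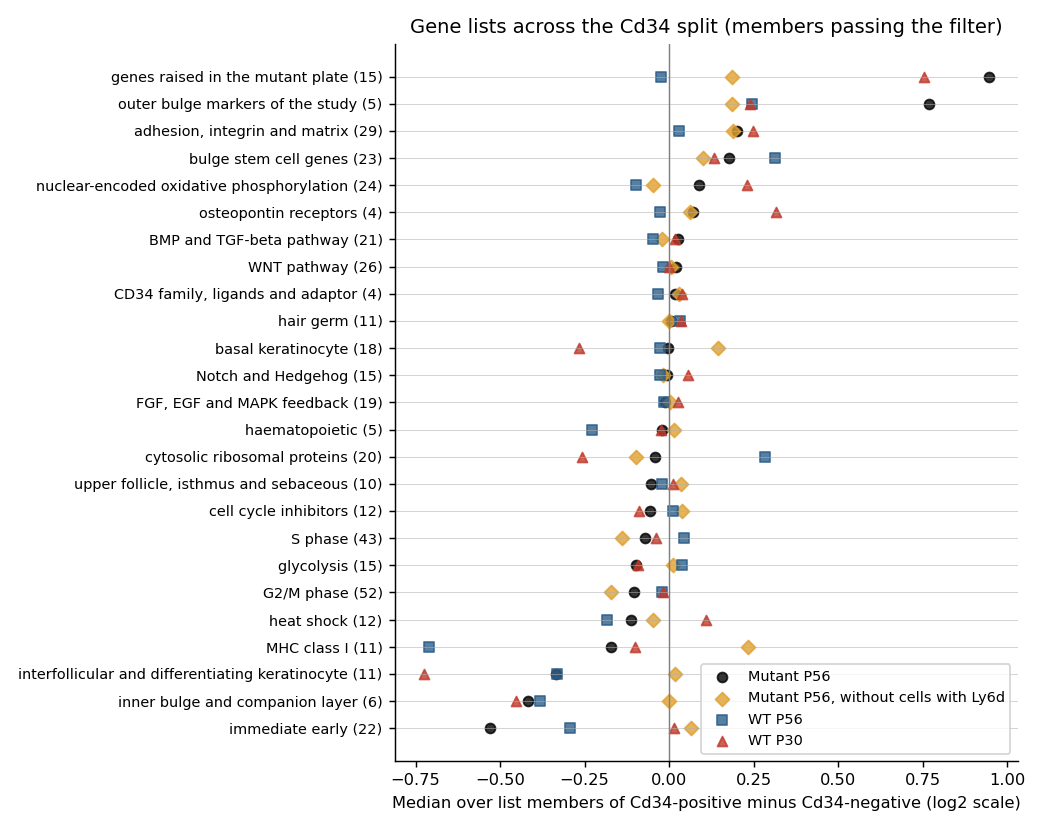
Each row is a gene list with the number of members that passed the 10% filter, and the x axis gives their median difference, Cd34-positive minus Cd34-negative, on the log2(TPM per 10000 + 1) scale. Black circles are all mutant cells, yellow diamonds mutant cells without Ly6d, blue squares WT P56 and red triangles WT P30. The immediate early list lies at -0.53 in the mutant plate and at 0.063 without cells with Ly6d, and the genes raised in the mutant plate lie at 0.95 and 0.19.

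The WT plates were not used to choose the classes, but they held only 8 and 10 Cd34-positive cells, and no test was run on them. Over all genes compared, the median difference was -0.020 in the WT P56 and 0.00042 in the WT P30 plate. Of 134 genes at least 0.5 higher in the mutant split, 74 had the same sign in the WT P56 plate, near an even division of signs. In the WT P30 plate 117 did. Of 78 at least 0.5 lower, 70 and 63 did. A difference of at least 0.5 in 1 direction in all 3 plates was found for 16 genes higher (0.213%) and 28 lower (0.373%).

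The 12 higher genes named by that rule were Krt17, Il11ra1, Postn, Mfap2, Sparc, Anxa6, S100a6, Maged1, Emb, Lgals1, Sod1 and Cd63. Sparc was at 1.41, 0.66 and 2.12 in the mutant, WT P56 and WT P30 plates, and Postn at 0.87, 1.77 and 1.68. Mfap2 was detected in 5 of 8 positive and 25 of 75 negative WT P56 cells and in 5 of 10 and 3 of 74 WT P30 cells. Lower genes named by it were Mt1, Ly6d, Ccl27a, Mt2, Fam25c, Lgals3, Atf3, Clca3a2, Serpinb2, Nfkbia and Cdkn1a. Lgr5 was at 0.40, 0.75 and 0.60, and without cells with Ly6d at 0.10, 0.29 and 0.79.

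Cells with Ly6d numbered 50 of 83 and 56 of 84 in the WT P56 and P30 plates and 20 of 89 in the mutant plate. Of the Cd34-positive WT cells, 3 of 8 held Ly6d at P56 and 5 of 10 at P30, beside 47 of 75 and 51 of 74 Cd34-negative cells. Without them, 5 positive and 28 negative cells remained at P56 and 5 and 23 at P30. The Krt17 difference, 1.59 and 1.18 with all cells, was then -0.11 and -0.64, whereas it was 2.51 in the mutant plate. Sparc went from 0.66 and 2.12 to 0.70 and 0.90. Mt1 went from -1.55 and -1.76 to -0.59 and -0.44, against -2.22 in the mutant plate. Of the other higher genes named in all 3 plates, only Mfap2 at P56 (-0.34) and S100a6 at P30 (-0.63) fell below 0, and Lgals1 was at 0.018 at P56. Of the lower ones, Nfkbia, Lgals3 and Atf3 were at 0.72, 0.33 and 0.31 at P56 and at -0.64, -1.98 and -0.61 at P30. Ccl27a and Fam25c were also above 0 at P56. With 5 positive cells a plate, these WT values rest on few cells, and the difference between plates was not tested.

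Higher genes of the mutant split with the other sign in the WT P56 plate included Ucp2 (-0.29), Gja1 (-0.28), Mat2a (-0.32) and Myl9 (-0.24), which were between 1.14 and 1.29 in the mutant plate. Junb and Fos, at -1.07 and -0.96 in the mutant plate, were at 0.17 and -0.18 at P56 and at -0.01 and -0.17 at P30. Of the MHC class I genes, H2-D1 was at -0.14 in the mutant plate and at -1.97 and -1.04 in the WT plates, and B2m at -0.29, -1.54 and -0.18. The median of that list was -0.17 in the mutant, -0.71 in the WT P56 and -0.10 in the WT P30 plate. In the mutant plate it became 0.23 without cells with Ly6d and 0.032 with adjustment for immediate early genes. Reads shared between the similar H2 genes are apportioned by the quantification, so single H2 values are uncertain.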

How the data were processed

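Single bulge cells were captured on Fluidigm C1 chips and their cDNA was sequenced as paired-end reads. The authors aligned reads with STAR 2.4.2 to mm10 (GRCm38) and quantified genes with RSEM, and the deposited tables hold TPM per cell. Chambers seen to hold no cell or several cells were left out by the authors, and doublets were not sought further. The deposited tables gave no read counts per cell, so the depth behind each value was not known.

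Symbols with several identifiers were averaged (40 of 30957). Mutant cells were kept if TPM summed to 750000 or more, mitochondrial genes held no more than 20% and 2000 to 7000 genes were above 0, with the same limits for the WT bulge plates. For the melanocyte and myeloid plates the lower limit was 1000 genes, with no upper limit. In the mutant myeloid table, columns gave the group but not the sample, and 1 column of per-cell values that matched no sample was not used. TPM were divided by the cell's total, multiplied by 10000 and put on a log2 scale with a pseudocount of 1. The difference of a gene was the mean over Cd34-positive minus the mean over Cd34-negative cells. Genes were compared if TPM was at least 1 in 25% of the cells of either class, and members of gene lists if it was so in 10%. Pairs of cells matched on genes detected differed by at most 250 genes. Shares of cells carry exact Clopper-Pearson 95% intervals, which cover counting error only, and beside a share of 0 the limit is 3 counts of the total. All cells of a plate were counted as 1 sample, so no test was run and no p-value is given.

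Named genes were the 14 with the largest difference in each direction, leaving out Cd34, predicted and sex-linked genes and those of mitochondrial DNA or ribosomal proteins, up to 12 genes in each direction with a difference of at least 0.5 in all 3 bulge plates, and members of the 29 gene lists by size. Some genes that met these rules are not reported here, which left 13 lower genes. The split, the members and the lists were chosen with earlier results of these data known. The division by Ly6d, the leaving out of well rows C and D, the adjustment for immediate early genes and the split of the positive cells at their median Cd34 were chosen after the values were seen. Alternatives covered the Cd34 limit, the cells kept, genes detected per cell, the well rows, the scale, the pseudocount, the filter and the size limit. The procedure was tested on simulated data made from the mutant cells. Coordinates came from GENCODE vM21 on GRCm38. Tools were SciPy 1.17.1, pandas 2.3.3, NumPy 2.4.6 and matplotlib 3.10.9 under Python 3.11.15.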

Additional observations from a re-analysis of the deposited data

Results flagged for a closer look

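Krt15, a keratin gene used as a bulge marker, moved in opposite directions with Cd34 in the P56 plates of the different genotypes. The Cd34-positive minus Cd34-negative difference was -0.66 in the mutant plate and 0.60 in the WT P56 plate, on the log2(TPM per 10000 + 1) scale. Without cells with Ly6d it was -0.33 and 1.41, and 2.65 in the WT P30 plate. In that setting each WT plate held 5 Cd34-positive cells. Dcn, the gene of the dermal proteoglycan decorin, was at -0.50 in the mutant plate and at 1.27 in the WT P30 plate. Each plate was counted as 1 sample and the WT plates held 8 and 10 Cd34-positive cells, so neither difference between plates was tested.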

How the results depend on the processing

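No paired analysis was possible because each plate was counted as 1 sample and well numbers do not link cells of different plates. The pairing of cells on genes detected was a matching within the mutant plate. The count of genes at least 1 higher in Cd34-positive cells, 20, became 40 in rows A to D, 12 in rows E to H, 13 without the cells with interfollicular keratins, 13 without cells with Ly6d, 13 with adjustment for immediate early genes, 197 with a pseudocount of 0.1, 134 at a size of 0.5 and 677 on log2(TPM + 1). The count of lower genes, 14, became 31 without cells with at least 20 G2/M genes, 4 without cells with Ly6d, 4 with adjustment for immediate early genes, 126 with a pseudocount of 0.1, 78 at a size of 0.5 and 704 on log2(TPM + 1), a scale on which low TPM weigh more by construction. On that scale 234 genes were higher and 413 lower in all 3 bulge plates, against 16 and 28. The difference in median genes detected, 67, became 147 with no limits on cells and 185 without rows C and D, and it changed sign to -94 without cells with G2/M genes, -33 in rows A to D and -22 without cells with Ly6d. Without cells with Ly6d the differences of Atf3 (0.073), Anxa8 (0.0018), Lgals3 (0.014), Junb (0.00025) and Nfkbia (0.43) and the list medians of inner bulge (0.00045), interfollicular (0.017) and immediate early genes (0.063) also changed sign. Nfkbia did so with adjustment for immediate early genes as well (0.082). Cells with Ly6d were removed by a gene that goes with those genes, so the fall of their differences was partly built in. The adjusting list itself holds Atf3, Dusp1, Junb and Nfkbia, so changes of these genes with that adjustment were partly built in too. The MHC class I median changed sign as well, from -0.17 to 0.23 without cells with Ly6d. Of 518 differences of 37 named genes under 14 alternatives, 420 moved by at most 0.5 and the 6 given here changed sign. The sources used here do not give how many mice a plate held, so cells of different mice cannot be told apart, and a transcript at TPM 0 may have been missed in that cell.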
